A study of Mus musculus with 8 samples.

Results

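The imprinted growth control genes are a set of 10 genes, namely Igf2, Igf2r, Dlk1, Peg3, Grb10, Mest, Plagl1, Ndn, Gnas and Dcn. They were taken by name from the 41457 genes in the deposited table of each sample, and each of the 10 names was found. RNA was sequenced from untreated wildtype C57BL/6 keratinocytes (KCs), the epithelial cells of the epidermis, prepared from the tail of adult mice. The study's text gives the strain as C57BL/6J. The KCs were kept in serum-free KC medium with 0.06 mM Ca++, were split at 90% confluence, and were cultured for 1 week (4 samples) or 3 weeks (4 samples). The cells of both groups had the same genotype and medium and differed in time in culture, and cells at 3 weeks had had longer to be split. The labels describe 4 independent experiments and do not say whether a sample holds the cells of several mice. Adult here means an age of 8 to 12 weeks, the general range for the study's animals.

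Genomic imprinting silences a gene on the copy inherited from the mother or from the father. Many imprinted genes act on growth, with a tendency of paternally expressed genes to promote fetal growth and of maternally expressed genes to restrain it. Igf2, Dlk1, Peg3, Mest, Plagl1 and Ndn are known as paternally expressed, Igf2r is maternally expressed in most mouse tissues, and Grb10 and Gnas switch their expressed copy with tissue and promoter. Dcn is known to be imprinted in mouse placenta. Plagl1 is a zinc finger transcription factor that was described as a regulator of a network of such genes, many of which are high in the embryo and fall after birth. The reads were counted per gene without regard to the parental copy, so the values below are summed over both copies. Fewer cells expressing a gene and less RNA of it per cell cannot be told apart in these bulk samples.

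Levels are given as RPKM, the exon reads of a gene scaled to its exon length and to the number of mapped reads, as deposited. Differences are given as log2 fold changes, 3 weeks over 1 week, fitted with edgeR to the exon reads of all genes after TMM normalization for library composition. A gene was called higher or lower when its p-value, adjusted by the Benjamini-Hochberg method over all 12590 genes with enough reads, was under 0.05. The exon reads numbered between 13896807 and 20026084 per sample at 1 week and between 14096649 and 18127283 at 3 weeks. All 12 KC markers, among them Krt5 and Krt14, had a mean of at least 1 RPKM, and their summed level was 13630 to 16150 RPKM at 1 week and 8716 to 10240 RPKM at 3 weeks. Krt5 and Krt14 make up most of this sum. Of the 12 markers 8 had log2 fold changes above 0, with a median of 0.08, and Krt5 and Itga6 were called lower. The library of 3 weeks replicate 3 stood apart, with a mean exon length per read of 3856 bases against 4395 to 5188 bases in the other samples and a sum of all RPKM values of 477197 against 330529 to 370490. Results that rest on this library are therefore also given without it. The p-values measure the spread between these samples.

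The stretch before a gene's start is where imprinted genes often carry their CG-rich control elements, and 4 of these stretches are printed here. Peg3, Mest and Gnas are shown because they rose between 1 and 3 weeks, and Grb10 because it was lower in each pair of samples described below without passing the test. They come from the RefSeq promoter table for build GRCm38.p6, which matched 9 of the 10 genes and gave 18 windows of 250 bases before a start. Only bases outside every annotated exon of any gene are shown, 5′ to 3′ on the strand of the gene. Capitals mark CG dinucleotides and, in Gnas, the letters TTTATA, which read TATAAA on the other strand.
Peg3 (chr7:6730432-6730577, minus strand): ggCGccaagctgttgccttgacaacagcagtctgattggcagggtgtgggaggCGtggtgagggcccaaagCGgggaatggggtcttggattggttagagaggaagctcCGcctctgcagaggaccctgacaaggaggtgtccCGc
Mest (chr6:30737800-30738049, plus strand): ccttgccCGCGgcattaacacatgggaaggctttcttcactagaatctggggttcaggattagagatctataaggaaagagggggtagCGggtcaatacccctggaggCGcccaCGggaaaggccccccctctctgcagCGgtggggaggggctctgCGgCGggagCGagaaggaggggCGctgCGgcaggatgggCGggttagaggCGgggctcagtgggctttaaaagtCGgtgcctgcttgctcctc
Gnas (chr2:174284070-174284319, plus strand): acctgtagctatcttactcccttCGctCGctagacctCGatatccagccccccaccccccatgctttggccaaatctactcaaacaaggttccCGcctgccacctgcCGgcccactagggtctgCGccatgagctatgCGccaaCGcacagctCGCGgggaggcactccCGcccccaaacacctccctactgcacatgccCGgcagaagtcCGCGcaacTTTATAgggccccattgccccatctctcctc
Grb10 (chr11:12037421-12037670, minus strand): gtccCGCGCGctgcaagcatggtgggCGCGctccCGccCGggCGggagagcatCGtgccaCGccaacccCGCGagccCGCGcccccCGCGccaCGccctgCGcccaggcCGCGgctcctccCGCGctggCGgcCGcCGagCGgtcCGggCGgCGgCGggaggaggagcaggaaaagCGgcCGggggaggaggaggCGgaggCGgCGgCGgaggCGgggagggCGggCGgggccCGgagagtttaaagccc
The Peg3 stretch had 146 bases and held 5 CG dinucleotides, and the whole Peg3 window of 250 bases held 8. The Mest and Gnas stretches held 14 CG each, and the Grb10 stretch held 40. Further windows of these genes held 7 and 14 CG (Mest), 21, 22 and 29 (Gnas) and 8 (Grb10). Among all 32851 windows of the table the median was 6 CG, with quartiles of 2 and 16, and 7 of the 18 windows of these genes lay above the upper quartile. GGGGCCCC, a palindrome given as the letters bound by Plagl1, was searched on both strands of the 18 windows. It was found in 1 of them, that of Peg3, 201 bases before the start, in the part that is annotated as an exon of Usp29 on the opposite strand and is not printed. Of all windows, 0.889% held these letters. TATAAA was in 3 of the 18 windows, all of Gnas, against 12.4% of all windows. A pair of these Gnas windows overlap and hold the same site, and a pair of Mest windows also overlap nearly whole. A match is a description of letters, and no match says only that they are not in the window. The windows of Ndn and of the Gnas start at which the most widely expressed form begins lay wholly in annotated exons and are not printed. The printed Gnas stretch precedes the first of its 4 starts. Reads were counted per gene and do not show from which start Gnas rose.

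Between 1 and 3 weeks of culture, 4 of the 10 genes rose, namely Mest, Peg3, Ndn and Gnas. No gene of the set was called lower by edgeR's quasi-likelihood test, although Grb10 was lower at an unadjusted p under 0.05. Of the remaining genes, Igf2r, Grb10, Igf2, Plagl1 and Dcn did not pass, and Dlk1 had too few reads to be tested. Among all tested genes 15.7% were called higher, 17.0% were called lower, and 32.8% were called in either direction. At an unadjusted p under 0.05, 5 genes of the set were higher and 1 was lower, where 21.7% and 22.0% of all tested genes were. DESeq2 called 5 higher and 0 lower, and limma on log2(RPKM + 0.1) or log2(RPKM + 1) called 4 higher and 0 lower. Of all 12590 tested genes, DESeq2 called 2424 higher and 2458 lower. Limma called 1292 higher and 3025 lower with + 0.1, and 1252 higher and 3103 lower with + 1. The 9 tested genes had a median log2 fold change of 0.74, against 0.03 for all tested genes, and 7 of the 9 values were above 0. The set holds few genes, so these shares describe it and were not tested. Without the library of 3 weeks replicate 3, 5 genes of the set were called higher and 0 lower. Calls over all genes rose as well, to 2194 higher and 2667 lower of 12799, in place of 1981 and 2146 of 12590. Mest then had a log2 fold change of 1.77, Peg3 of 2.12, Ndn of 1.38 and Gnas of 0.77, with adjusted p-values between 0.00236 and 0.0204, and Igf2r was the gene that joined them. In the same fit the log2 fold change of Grb10 was -0.76 (adjusted p = 0.140) and that of Igf2 was 0.35 (adjusted p = 0.622). The plot of fold changes shows the 4 genes that passed beside those that did not.

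**Figure D1:**
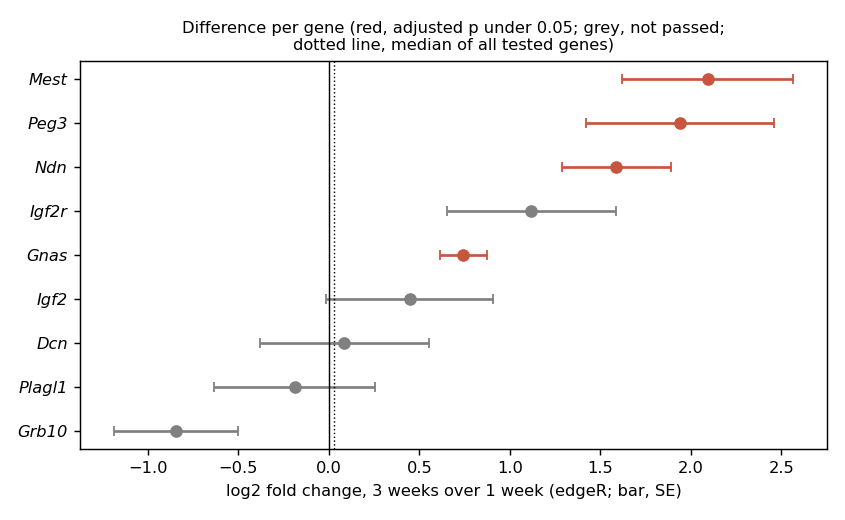
Log2 fold change, 3 weeks over 1 week, of the 9 tested genes (points, edgeR estimate; bars, SE; red, adjusted p under 0.05; grey, not passed). The values run from -0.84 for Grb10 to 2.09 for Mest, and the dotted line marks the median of all tested genes at 0.03.

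The genes spanned a wide range of levels. At 1 week the mean level was 90.2 ± 3.87 RPKM for Gnas (SD, n = 4 here and below), 11.1 ± 4.48 RPKM for Igf2r, 4.34 ± 2.19 RPKM for Grb10 and 3.15 ± 0.952 RPKM for Ndn. Below 1 RPKM lay Dcn with 0.636 ± 0.236 RPKM, Mest with 0.627 ± 0.215 RPKM, Peg3 with 0.354 ± 0.254 RPKM, Plagl1 with 0.163 ± 0.0412 RPKM, Igf2 with 0.0902 ± 0.0567 RPKM and Dlk1 with 0.00558 ± 0.00652 RPKM. Gnas stood above every other gene of the set in all samples, whereas neighbours further down this order, such as Grb10 and Ndn, Dcn and Mest, or Plagl1 and Igf2, overlapped within their spread. At 3 weeks the order was Gnas, Igf2r, Ndn, Mest, Grb10, Peg3, Dcn, Plagl1, Igf2 and Dlk1. Ndn and Mest had moved above Grb10, and Peg3 had moved above Dcn, but Igf2r and Ndn, Mest and Grb10, and Peg3 and Dcn overlapped within their spread. Gnas alone made up 76.8% to 83.8% of the summed level of the set, which was 103 to 115 RPKM at 1 week and 133 to 205 RPKM at 3 weeks. The sum did not overlap between the times. The plot of levels in each sample shows these values gene by gene.

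**Figure D2:**
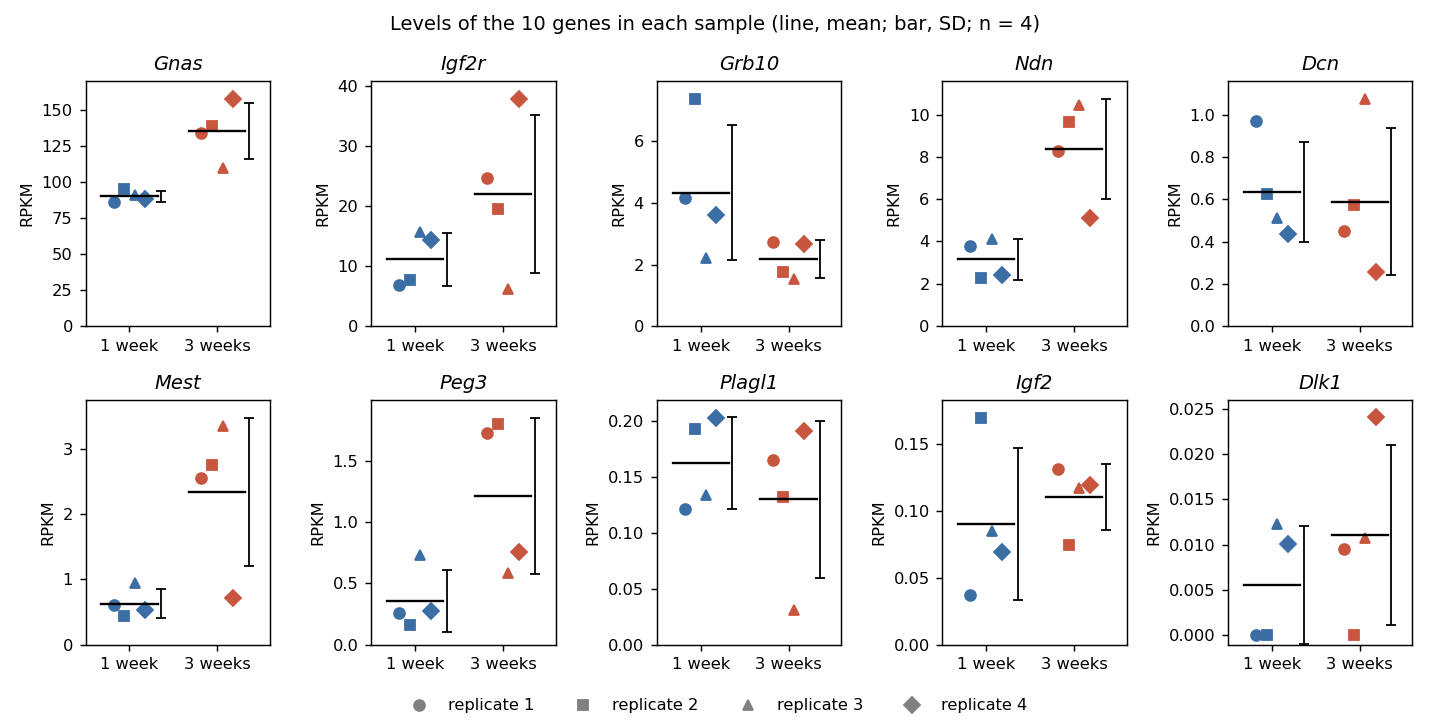
RPKM of each of the 10 genes in the 4 samples of 1 week (blue) and 3 weeks (red), with the mean (line) and SD (bar) and a scale of its own for each gene. Ndn and Gnas have groups that do not overlap, and in Mest and Peg3 a single sample of a group reaches into the other.

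Gnas encodes the stimulatory G protein subunit that couples receptors to adenylyl cyclase, together with further imprinted transcripts from upstream promoters (ENSMUSG00000027523, chromosome 2, 174284320 to 174346744, GRCm38). Its level in replicates 1 to 4 was 86.2, 95.2, 91.0 and 88.3 RPKM at 1 week and 134, 139, 110 and 158 RPKM at 3 weeks. The lowest 3-week sample lay above the highest 1-week sample, and the 1-week samples were close together, with a coefficient of variation of 4.29% against 14.5% at 3 weeks. Gnas rose by 0.74 on the log2 scale (SE 0.13, adjusted p = 0.00315, edgeR). The ratio of mean RPKM, which is without TMM normalization and is thus a smaller change, was 1.50. Gnas had the most reads of the set, between 14618 and 28034 per sample. The count is per gene and does not separate the transcripts of its promoters. Of its exon bases 22.0% are shared with other genes, most of them with Gm20721 on the opposite strand, which had 121 to 405 reads per sample. Only 18.0% of the Gnas reads were counted as unique, and with those reads the log2 fold change was 0.66 (adjusted p = 0.00553). Nespas, the antisense transcript of the locus, had 0 reads in each 1-week sample and 1 or 2 reads in each 3-week sample, which is under the floor of 3 reads.

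Ndn encodes necdin, a growth-suppressing protein of the MAGE family that lies in the Prader-Willi region (ENSMUSG00000033585, chromosome 7, 62346569 to 62350262). In replicates 1 to 4 its level was 3.80, 2.27, 4.13 and 2.39 RPKM at 1 week and 8.26, 9.65, 10.4 and 5.09 RPKM at 3 weeks. The groups did not overlap, and replicate 4 was the lowest of the 3-week samples. Ndn rose with a log2 fold change of 1.59 (SE 0.30, adjusted p = 0.00443, edgeR). Groups that do not overlap in RPKM occurred in 37.0% of all tested genes, with 10.8% higher and 26.2% lower at 3 weeks, and in the set they occurred in Ndn and Gnas, both higher. Ndn is a gene of 1 exon and lies inside the span of Gm32061, a lincRNA on the opposite strand with 1 read in all samples, with which it shares 0 exon bases. None of its 2880 reads were counted as unique in the deposited tables, so the Ndn values rest on the total exon reads, and no value with unique reads could be given. Its neighbour Magel2, another MAGE gene, had 0 reads in all 8 samples. Mkrn3 and Peg12, also paternally expressed neighbours, had 88 and 60 reads in all, and Mkrn3 did not pass (log2 fold change -0.43, SE 0.39, adjusted p = 0.425, edgeR).

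Mest, also known as Peg1, encodes an alpha/beta hydrolase-like protein of the endoplasmic reticulum that is tied to mesodermal and fetal growth (ENSMUSG00000051855, chromosome 6, 30723547 to 30748465). Its level was 0.599, 0.443, 0.936 and 0.532 RPKM in the 1-week replicates 1 to 4 and 2.54, 2.75, 3.35 and 0.708 RPKM in the 3-week replicates. Replicates 1 to 3 at 3 weeks were above all 1-week samples, whereas replicate 4 lay within their range, so the groups overlapped. Mest rose by 2.09 on the log2 scale (SE 0.47, adjusted p = 0.00948, edgeR). When single samples were left out, it was between 1.77 and 2.41, with adjusted p-values between 0.000712 and 0.0326. Of the exon bases of Mest 23.1% are shared with Copg2 on the opposite strand, which had 1439 to 2402 reads per sample against 36 to 217 for Mest. The kit named by the authors does not mark strand, and reads from the shared part cannot be told apart. Copg2 itself had a log2 fold change of 0.23 (SE 0.14, adjusted p = 0.217). With unique reads, 82.4% of all Mest reads, the log2 fold change of Mest was 1.98 (adjusted p = 0.00871).

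Peg3 encodes a large zinc finger protein that binds DNA and has been linked to maternal behaviour and growth (ENSMUSG00000002265, chromosome 7, 6703892 to 6730431). It was at 0.260, 0.157, 0.727 and 0.272 RPKM in replicates 1 to 4 at 1 week and at 1.73, 1.80, 0.585 and 0.751 RPKM at 3 weeks. Replicate 3 at 3 weeks was below replicate 3 at 1 week, and all other 3-week samples were above all 1-week samples. The log2 fold change was 1.94 (SE 0.52, adjusted p = 0.0197, edgeR). This call was the least stable of the 4. Peg3 no longer passed without 1 week replicate 1 (adjusted p = 0.0640), 1 week replicate 4 (0.0592), 3 weeks replicate 1 (0.0539) or 3 weeks replicate 2 (0.0536), while its log2 fold change stayed between 1.68 and 2.54 with any sample left out. Treating the replicate number of the labels as a block gave 2.02 with an adjusted p of 0.0521. Its neighbours Usp29 and Zim1 had 15 and 12 reads in all samples and were not tested.

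Igf2r encodes the cation-independent mannose 6-phosphate receptor, which carries enzymes to lysosomes and removes the growth factor IGF2 from the cell surface (ENSMUSG00000023830, chromosome 17, 12682406 to 12769664). Its level in replicates 1 to 4 was 6.77, 7.73, 15.6 and 14.2 RPKM at 1 week and 24.7, 19.5, 6.09 and 37.8 RPKM at 3 weeks. Replicate 3 at 3 weeks was the lowest of all 8 samples, and the other 3-week samples were above all 1-week samples. The log2 fold change was 1.12 (SE 0.47, adjusted p = 0.0975, edgeR) and did not pass. Without 3 weeks replicate 3 it was 1.39 (SE 0.35, adjusted p = 0.0160), and DESeq2 gave 1.14 with an adjusted p of 0.0409. Without 3 weeks replicate 4, the highest sample, it was 0.75 (adjusted p = 0.220), with the replicate block it was 1.04 (adjusted p = 0.174), and limma on log2(RPKM + 0.1) gave 0.81 (adjusted p = 0.288). The antisense transcript Airn, whose transcription silences Igf2r on the paternal copy in other tissues, shares 0 exon bases with it and had 4 to 9 reads per sample at 1 week and 5 to 32 at 3 weeks. At 3 weeks both Airn and Igf2r were lowest in replicate 3 and highest in replicate 4. Airn was nearly equal in 3 weeks replicates 1 and 2, at 0.239 and 0.237 RPKM from 16 and 14 reads. At 1 week the orders of Airn and Igf2r differed, with Airn lowest in replicate 4 (0.0630 RPKM) and Igf2r lowest in replicate 1 (6.77 RPKM). M6pr, which encodes the smaller mannose 6-phosphate receptor and is not imprinted, was at 56.4 ± 5.95 RPKM and 51.7 ± 6.54 RPKM and did not pass (log2 fold change 0.05, SE 0.15, adjusted p = 0.842).

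Igf2, the fetal growth factor bound by Igf2r, was near the limit of detection (ENSMUSG00000048583, chromosome 7, 142650766 to 142666816). It had 4 to 20 reads per sample and 80 in all, and its level was 0.0367, 0.170, 0.0852 and 0.0693 RPKM in the 1-week replicates and 0.131, 0.0744, 0.117 and 0.119 RPKM in the 3-week replicates. The groups overlapped, and the highest and the lowest sample were both of 1 week. The log2 fold change was 0.45 (SE 0.46, adjusted p = 0.495, edgeR) and did not pass. It was 0.16 without 1 week replicate 1, the lowest sample, and 0.96 (adjusted p = 0.141) without 1 week replicate 2, the highest. None of the 80 reads were counted as unique, and 64.6% of the Igf2 exon bases are shared with other genes, mainly the read-through gene Gm49394, which had 3 reads in all. H19, the maternally expressed RNA of the same locus, had 43 reads in all, with 5 to 10 reads per sample at 1 week and 1 to 7 at 3 weeks, and was not tested.

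Grb10 encodes an adaptor that binds the insulin and IGF1 receptors and restrains their signal (ENSMUSG00000020176, chromosome 11, 11930508 to 12038683). Its level was 4.18, 7.38, 2.20 and 3.60 RPKM in the 1-week replicates 1 to 4 and 2.75, 1.75, 1.53 and 2.66 RPKM in the 3-week replicates. The groups overlapped through 1 week replicate 3, which was below 3 weeks replicates 1 and 4. The log2 fold change was -0.84 (SE 0.34, adjusted p = 0.0878, edgeR), with an unadjusted p of 0.0349, and did not pass. Without 1 week replicate 3 it was -1.07 (adjusted p = 0.0283), without 1 week replicate 2, the highest sample, it was -0.48 (adjusted p = 0.241), and over all alternatives it lay between -1.07 and -0.38. The related adaptors Grb7 and Grb14 had log2 fold changes of -0.08 and 0.62 and did not pass (adjusted p = 0.757 and 0.158).

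Plagl1 and Dcn showed no call and no stable direction. Plagl1 (ENSMUSG00000019817, chromosome 10, 13060504 to 13131694) was at 0.121, 0.192, 0.134 and 0.203 RPKM in the 1-week replicates and at 0.165, 0.132, 0.0311 and 0.192 RPKM in the 3-week replicates. Its lowest value was again in 3 weeks replicate 3, with 4 reads, and the groups overlapped. The log2 fold change was -0.19 (SE 0.44, adjusted p = 0.776, edgeR) and was 0.09 without that library. Dcn (ENSMUSG00000019929, chromosome 10, 97479609 to 97518143) encodes decorin, a small leucine-rich proteoglycan of the extracellular matrix that binds collagen and TGF-beta and is made mainly by fibroblasts. It was at 0.972, 0.624, 0.513 and 0.437 RPKM in the 1-week replicates and at 0.450, 0.573, 1.07 and 0.257 RPKM in the 3-week replicates. The highest and the lowest of the 8 samples were both of 3 weeks. Its log2 fold change was 0.09 (SE 0.47, adjusted p = 0.910), and -0.48 without 3 weeks replicate 3.

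Since Dcn marks fibroblasts, the markers of that cell type were read beside it. The summed level of 14 fibroblast markers was 7.70 to 12.8 RPKM at 1 week and 9.89 to 23.9 RPKM at 3 weeks, and 3 of the 14 had a mean of at least 1 RPKM. Of the 13 tested, Col5a2 and Fbln2 were higher, Col6a3 and Pdgfrb were lower, and the median log2 fold change was -0.24. Of all tested genes 15.7% were higher and 17.0% were lower. Col1a1 was at 1.24 ± 0.443 RPKM and 1.58 ± 1.23 RPKM, Col3a1 at 0.569 ± 0.186 RPKM and 0.423 ± 0.155 RPKM, and Dpt at 0.491 ± 0.183 RPKM and 0.387 ± 0.0337 RPKM. Markers of other cells were also low, with sums of 3.54 to 21.4 RPKM and 1.65 to 5.94 RPKM for 6 melanocyte markers, 16.5 to 22.6 RPKM and 10.1 to 14.5 RPKM for 8 immune cell markers, mainly Cd68, and 0.411 to 0.602 RPKM and 0.275 to 0.512 RPKM for 6 endothelial markers. Ncam1, a neural adhesion gene, rose from 0.566 ± 0.168 RPKM to 7.30 ± 3.40 RPKM (log2 fold change 3.84, SE 0.35, adjusted p = 0.000286, edgeR), while the neural crest marker Sox10 was at 0.0770 ± 0.0586 RPKM and 0.0511 ± 0.0396 RPKM. The part of other cell types in the levels of Ndn, Peg3, Mest or Dcn was not tested.

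Dlk1, a membrane protein of the delta family that is high in fetal tissues and restrains adipocyte formation, was hardly detected (ENSMUSG00000040856, chromosome 12, 109452823 to 109463336). It had 0, 0, 1 and 1 reads in the 1-week replicates and 1, 0, 1 and 2 reads in the 3-week replicates. Every sample was under the floor of 3 reads, which corresponds to 0.0258 to 0.0369 RPKM depending on the sample, so no fold change is given. Meg3, the maternally expressed RNA next to it, had 0 reads in all 8 samples, and Rtl1 had 9 reads in all. Dlk2, a related gene that is not imprinted, was measured and fell from 3.88 ± 0.996 RPKM to 0.241 ± 0.116 RPKM, with 119 to 194 reads per sample at 1 week and 4 to 14 at 3 weeks. Its log2 fold change was -3.82 (SE 0.36, adjusted p = 0.000293, edgeR).

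The 4 samples of a time did not move together across the genes. Mest and Ndn put the samples in the same order at both times, with replicate 2 lowest and replicate 3 highest at 1 week, and replicate 4 lowest and replicate 3 highest at 3 weeks. Peg3 had the same lowest and highest sample as these at 1 week, but at 3 weeks its lowest value was in replicate 3. In that library Igf2r, Peg3, Grb10, Plagl1 and Gnas had their lowest 3-week values, and Mest, Ndn and Dcn had their highest. In 3 weeks replicate 4 the pattern was turned round for several genes, with the lowest Mest, Ndn and Dcn and the highest Igf2r and Gnas. These libraries also had the shortest and the longest mean exon length per read, 3856 and 5188 bases, as the plot of sample profiles shows. The exon lengths were 9308 bases for Igf2r, 13324 for Peg3, 9089 for Grb10, 3945 for Mest and 3694 for Ndn. In a fit with a smooth correction for exon length in each sample, which was added after seeing the data, the log2 fold changes were 2.10 for Mest, 1.84 for Peg3, 1.61 for Ndn and 0.67 for Gnas, with adjusted p-values between 0.00289 and 0.0185. That of Igf2r was 1.00 (adjusted p = 0.0702) and that of Grb10 was -0.92 (adjusted p = 0.0545) in the same fit.

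**Figure D3:**
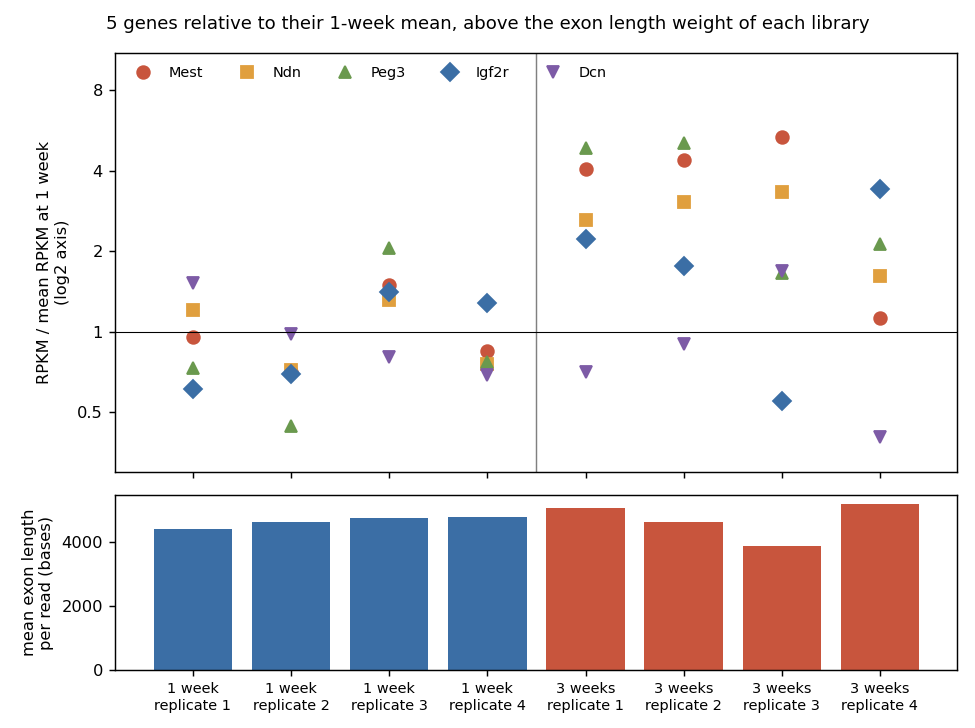
Above, RPKM of Mest, Ndn, Peg3, Igf2r and Dcn in each sample divided by the mean of the gene at 1 week, on a log2 axis, and below, the mean exon length per read of the same libraries in bases. In 3 weeks replicate 3, the library with the shortest mean exon length of 3856 bases, Mest and Ndn are at their highest and Igf2r is at its lowest.

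The names of the deposited tables carry a further number, which was 46, 47, 49 and 90 in the 1-week samples in the order of their replicate numbers, and 46, 49, 57 and 90 in the 3-week samples. The study describes the use of the same batches of KCs for both times, and whether the number names a batch is not given in the sources used here. As 46, 49 and 90 occur at both times, 3 pairs of samples could be compared by ratio. Igf2r, Peg3, Mest, Ndn and Gnas were higher at 3 weeks in 3 of 3 pairs, and Grb10 was lower in 3 of 3. Of all tested genes 24.3% were higher and 37.1% were lower in all 3 pairs. The ratios were close together for Ndn, between 2.13 and 2.34, for Gnas, between 1.53 and 1.79, and for Grb10, between 0.657 and 0.797. They were spread for Igf2r (1.25 to 3.65), Peg3 (2.47 to 6.64) and Mest (1.33 to 4.25). Igf2 was higher in 2 of 3 pairs, and Plagl1 and Dcn in 1 of 3. With the number as a block over these 6 samples, edgeR also called Igf2r higher (log2 fold change 1.28, SE 0.31, adjusted p = 0.0299) and did not call Grb10 (-0.38, SE 0.17, adjusted p = 0.152). The libraries of 3 weeks replicate 3 and of 1 week replicate 2, the highest Grb10 sample, are not in that fit. Without 1 week replicate 2 alone and with no block, edgeR gave -0.48 for Grb10 (adjusted p = 0.241).

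**Figure D4:**
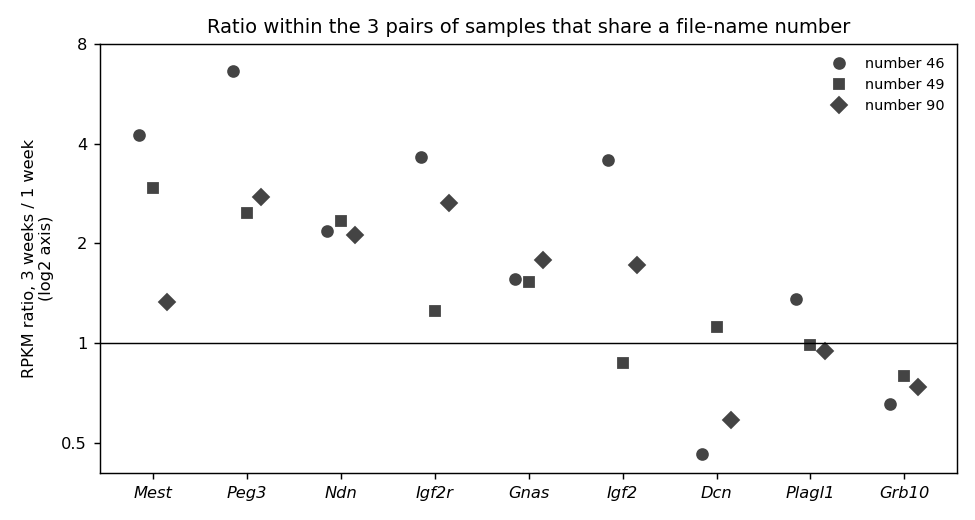
Ratio of RPKM, 3 weeks over 1 week, within the 3 pairs of samples whose tables carry the same number (46, 49 or 90), on a log2 axis with a line at a ratio of 1. Ndn (2.13 to 2.34) and Gnas (1.53 to 1.79) lie in a narrow range, and Peg3 spreads from 2.47 to 6.64.

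Other imprinted genes moved in both directions. Of 60 further genes listed as imprinted, 32 had enough reads to be tested. Of these 9 (28.1%) were higher and 4 (12.5%) were lower, with a median log2 fold change of 0.41. Here and below, paternally or maternally expressed is the label of the list. Imprinting of these genes in KCs was not measured. Of all tested genes 15.7% were higher and 17.0% were lower, with a median of 0.03, and 32.8% were called in either direction, which is the background for this list and for those below. No list was compared with other genes by a test. Among 25 genes listed as paternally expressed, 12 were tested, 3 were higher and 2 were lower. Impact, which restrains the activation of the kinase GCN2, rose from 2.63 ± 0.427 RPKM to 7.24 ± 0.818 RPKM (log2 fold change 1.62, SE 0.15, adjusted p = 0.000299, edgeR). The noncoding RNA Peg13 and the splicing protein gene Snrpn also rose, by 1.14 (SE 0.17) and 0.63 (SE 0.18) on the log2 scale. None of the reads of Peg13 and 32.8% of those of Snrpn were counted as unique. Slc38a4, an amino acid transporter of the fetus and placenta, fell from 3.21 ± 0.758 RPKM to 0.154 ± 0.0716 RPKM (-4.21 on the log2 scale, SE 0.34, adjusted p = 0.000193). Mcts2, which lies inside an intron of H13, fell by 0.89 on the log2 scale, and its host gene H13 rose by 0.75. None of the reads of Mcts2 were unique either, and with unique reads the list had 3 calls in place of 5. Calls over all genes with unique reads were 3985 in place of 4127.

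Among 35 genes listed as maternally expressed, 20 were tested, 6 were higher and 2 were lower. The potassium channel gene Kcnq1 had the largest rise of the 6, from 0.143 ± 0.0351 RPKM to 0.574 ± 0.560 RPKM (log2 fold change 2.12, SE 0.59, adjusted p = 0.0235, edgeR), with 85 of its 189 reads in 3 weeks replicate 4. Cd81, a tetraspanin at 165 ± 26.3 RPKM and 275 ± 95.5 RPKM, rose by 0.89, and Pon2 rose by 0.79. Phlda2, which restrains placental growth, fell from 5.05 ± 0.274 RPKM to 2.01 ± 0.849 RPKM (log2 fold change -1.13, SE 0.34, adjusted p = 0.0297), and Atp10a fell by 0.83. The count of this list depended on the library, with 11 genes called without 3 weeks replicate 3 and 2 without 1 week replicate 4, in place of 8. Calls over all genes moved the same way in these fits, to 4861 and 3015 in place of 4127. Of the 29 listed genes within 1 Mb of a gene of the set, 13 were tested, 2 were higher (Kcnq1 and Cd81, on chromosome 7 like Igf2) and 1 was lower (Phlda2, also near Igf2), as the plot of other imprinted genes shows by parental copy.

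**Figure D5:**
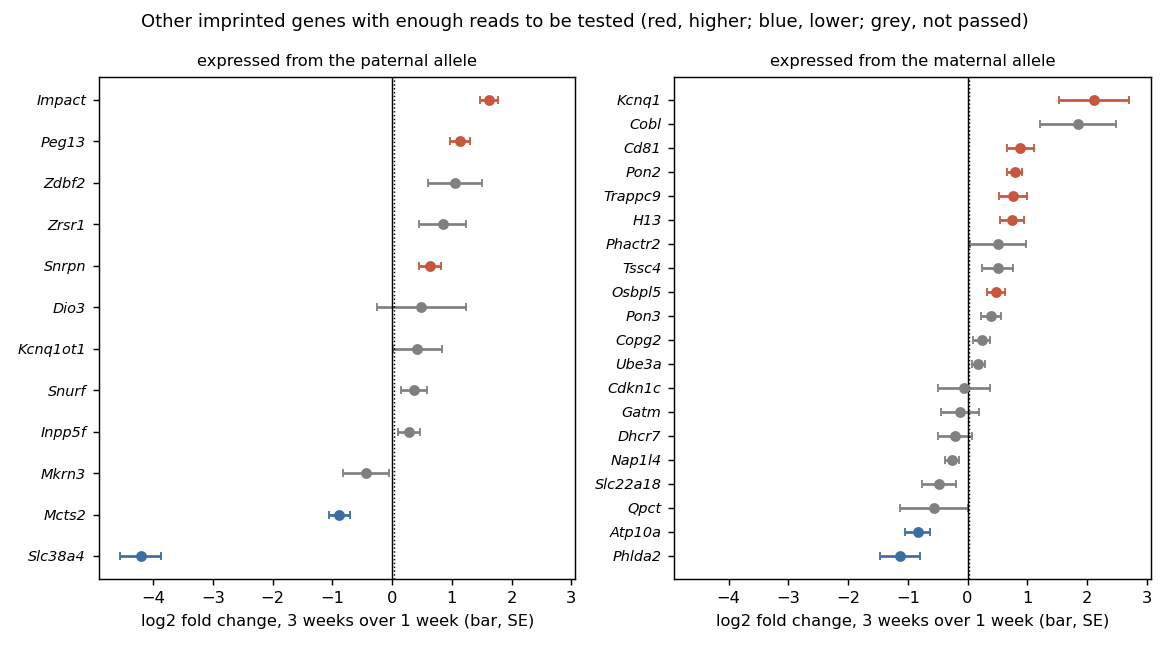
Log2 fold change, 3 weeks over 1 week, of the 12 tested genes listed as paternally expressed (left) and the 20 listed as maternally expressed (right) (points, edgeR estimate; bars, SE; red, higher; blue, lower; grey, not passed). The values run from -4.21 for Slc38a4 to 2.12 for Kcnq1, with called genes in both directions on both sides.

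The IGF pathway, on which Igf2, Igf2r and Grb10 act, had 12 listed genes, of which 9 were tested, 1 was higher and 1 was lower. Igfbp7, which encodes a secreted IGF-binding protein, rose from 119 ± 28.8 RPKM to 224 ± 126 RPKM (log2 fold change 1.06, SE 0.32, adjusted p = 0.0339, edgeR), with the highest value in 3 weeks replicate 4. Igfbp4, a further IGF-binding protein, fell from 1.42 ± 0.355 RPKM to 0.583 ± 0.248 RPKM (-1.11, SE 0.34, adjusted p = 0.0343). Neither call was stable, since the list had 0 calls without 1 week replicate 1 or without 1 week replicate 4. It had 1 call each without 1 week replicates 2 or 3 or 3 weeks replicate 1. The count was 2 without 3 weeks replicate 2, and 3 without 3 weeks replicate 3 or without 3 weeks replicate 4. Calls over all genes moved too, from 4127 to 3202 and 3015 in the fits with 0 calls in the list. They were 4861 and 4680 in the fits with 3. Igf1r, the receptor that passes on the IGF signal, was at 3.63 ± 0.483 RPKM and 4.35 ± 1.99 RPKM and did not pass (0.40, SE 0.32, adjusted p = 0.365). Igf1 had 39 reads in all samples and was not tested.

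Of 19 relatives of the 10 genes, 17 were tested, 4 were higher and 1 was lower. The MAGE family gene Maged1, related to Ndn, rose from 34.6 ± 4.47 RPKM to 50.5 ± 5.65 RPKM (log2 fold change 0.71, SE 0.14, adjusted p = 0.00512, edgeR). Maged2, of the same family, rose from 8.13 ± 0.383 RPKM to 16.6 ± 1.63 RPKM (1.19, SE 0.10, adjusted p = 0.000235). Nsmce3, also among these relatives, did not pass (-0.04, SE 0.15, adjusted p = 0.873). Plag1, a zinc finger gene related to Plagl1, rose by 1.61 (SE 0.32, adjusted p = 0.00539), while Plagl2 did not pass (-0.04, SE 0.20, adjusted p = 0.903). Ogn, a small leucine-rich proteoglycan like Dcn, rose by 2.21 (SE 0.73, adjusted p = 0.0442), with 143 of its 283 reads in 3 weeks replicate 4, and only 22.6% of its reads were unique. Dlk2, described above, was the gene that fell.

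For the genes of the set with a mean of at least 1 CPM, which leaves out Igf2 and Dlk1, the most similar genes were taken as those with a mean of at least 10 CPM (reads scaled to library size) whose log2 level had the highest Pearson correlation with it over the 8 samples. The samples fall into 2 groups and share library depth and composition, so these values are a description, chosen from about 8742 genes for each. For Gnas the nearest were Ncstn, a subunit of gamma-secretase (r = 0.997), Wbp2 (0.992) and Tcn2 (0.992). For Mest they were Wsb2 (0.996), Cyth2 (0.992) and Elk1 (0.990), and for Ndn they were Tbc1d10a (0.990), Cdip1 (0.988) and Nudt11 (0.987). Those of Igf2r were Jak1 (0.992), Plxnb1 (0.990) and Plekhg1 (0.990), and those of Peg3 were Rnf10 (0.987), Gclc (0.979) and Galnt10 (0.971). Grb10 was most like Xpc (0.959), Dennd4a (0.942) and Glce (0.942). Among the genes most like Plagl1 were Maml1 (0.976) and Zfyve9 (0.975), and Dcn was most like Nelfb (0.989), Ryk (0.988) and Psmb3 (0.988).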

How the data were processed

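The 8 deposited tables, 1 per sample, were read. The authors made poly(A) libraries from 140 ng of RNA with 12 cycles of amplification, and aligned and counted the reads to GRCm38 in the CLC Genomics Workbench with default settings. The deposited count columns (total exon reads, unique exon reads and total gene reads) are whole reads without normalization. The authors also deposited RPKM, with decimal commas, and TPM, which was not used here. Use of the strand in counting is not given in the sources used here.

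The test was that of edgeR 4.0.16 (R 4.3.3) on total exon reads (filterByExpr, TMM, glmQLFit, glmQLFTest, all 8 samples, unpaired as in the study, threshold 0.05), and SE was derived from the F statistic. Alternatives used DESeq2 1.42.0, limma 3.58.1, other normalizations, filters and read columns, blocks, and the omission of each sample. The fit was tested on simulated counts, where it called 27 of 100 changes of 2-fold and 83 of 100 of 4-fold, with 2 false calls. A gene that did not pass is therefore not shown to be unchanged. Python 3.11.15 and matplotlib 3.10.9 did the rest. Replicates differed by more than sampling noise (smallest chi-square per degree of freedom 15.3), and each was counted as 1 sample. Depth was 13896807 to 20026084 exon reads per sample. A floor of 3 reads covers counting error only.

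All 10 genes of the set are named whatever their values. From the other lists at most 4 called genes in each direction were chosen by size of change, beside neighbours and relatives chosen after their values were seen. The members and lists were chosen with earlier results of these data known. Exon overlaps came from GENCODE M21, whose gene positions equal the deposited ones for the 10 genes. Proteins were not used here. Most genes of the other lists enter only as counts, and some are not reported here.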

Additional observations from a re-analysis of the deposited data

How the results depend on the processing

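Over 20 alternatives, 157 of 175 log2 fold changes of the set kept their direction and their side of the threshold, 5 no longer passed, 4 passed and 9 changed sign. Mest, Ndn and Gnas passed under each alternative that gave a value, with log2 fold changes of 0.96 to 2.41, 1.16 to 1.78 and 0.57 to 0.77. The 5 losses were all of Peg3 (adjusted p = 0.0521 with the replicate block, up to 0.0640 with 1 sample left out). Sign changes were limited to genes that were not called. Plagl1 was 0.19 with the block on the number in the table names, and 0.094 without 3 weeks replicate 3 (-0.40 to 0.094 with samples left out). Dcn was -0.070 with the replicate block, -0.50 with the block on the table number, -0.18 and -0.057 in limma on log2(RPKM + 0.1) and log2(RPKM + 1), and -0.48 to 0.34 with samples left out. The cause was not tested.

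The replicate block left 2867 calls over all genes in place of 4127, and 3 of the set were called higher in place of 4. Deviations of samples with the same replicate number correlated at -0.23, -0.15, -0.15 and 0.25, which does not show that the replicate numbers pair the samples. By the number in the table names, which replicates 1 and 4 share at both times, the correlations were -0.23 (46), 0.20 (49) and 0.25 (90). With samples left out, 0 to 1 genes of the set were called lower, 2 to 11 maternally expressed genes and 0 to 3 IGF pathway genes were called. Calls over all genes were then 3015 to 4861. With unique reads 3 paternally expressed genes were called, and with at least 10 reads in every sample 3 relatives were called. Of the maternally expressed genes, 3 were called with the replicate block, 4 with the block on the table number and 5 in either limma fit. Either limma fit called 1 IGF pathway gene. Calls over all genes were 3985 with unique reads, 3682 with at least 10 reads in every sample and 3109 with the block on the table number. Limma on log2(RPKM + 0.1) moved the median of all genes to -0.16 and called 1292 genes higher and 3025 lower, so that 29.9% of calls were higher in place of 48.0%; with + 1 it was -0.10, 1252, 3103 and 28.7%. Dlk1 had under 3 reads in every sample, and Igf2 and Plagl1 had 80 and 159 reads in all. Whether more reads would change their calls was not tested.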
